A study of Rattus norvegicus with 6 samples.

Results

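The autophagy and mitophagy genes described here are a list of 46 rat genes, named by symbol for their part in the pathway and looked up in a gene expression table of rat testis. Of the 46 genes, 44 had a row among the 35291 genes of the table. The expression of the other 2, Calcoco2 and Park2, was not analysed here. The list holds 5 initiation genes, 6 nucleation genes, 20 genes of membrane supply and conjugation, 5 cargo receptors, 6 mitophagy genes and 4 lysosome regulators. The values come from RNA-Seq of whole testicular tissue of 6 adult male Sprague-Dawley rats, an outbred strain, with 3 rats in each group. The diabetic (DM) rats had been fed a high-fat diet for 1 month and then received 1 intraperitoneal injection of streptozotocin (STZ, a toxin of pancreatic beta cells) at 35 mg/kg. The non-diabetic (ND) rats, labelled normal, were injected with citrate buffer, and testes were taken 8 weeks after the injection. The diet of the ND rats and the age of the animals in weeks are not given in the sources used here. If the ND rats did not receive the high-fat diet, the parts of diet and STZ in a difference cannot be told apart. The labels number the samples of a group as replicates and do not say more about the animals, so the p-values rest on the spread between these samples. In the test used below (limma), the spread of each gene is also drawn toward that of genes of like level.

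Autophagy encloses part of the cytoplasm in a double membrane, the autophagosome, and delivers it to the lysosome for breakdown. A kinase complex around ULK1 starts the process, a lipid kinase complex around Beclin-1 marks the membrane, and a ubiquitin-like conjugation system attaches proteins of the ATG8 family (LC3 and GABARAP) to it, where cargo receptors bind. Mitophagy is the same route taken by damaged or surplus mitochondria, marked through the kinase PINK1 or by receptors in their outer membrane. In the testis, autophagy is known for its part in building the acrosome of spermatids and in the steroid production of Leydig cells.

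Values are FPKM (fragments per kilobase, also scaled for library size), so that levels of different genes can be set side by side. The table holds no read counts, so the depth behind a value is unknown. The columns summed to between 453304 and 478211 FPKM. The tissue label was checked against marker genes. Spermatid markers (6 of 6 genes present) summed to 11230 to 12650 FPKM in DM and 10700 to 12900 FPKM in ND testes, and spermatocyte markers (6 of 6) to 292 to 327 and 296 to 333 FPKM. Sertoli cell markers (7 of 7) summed to 68.8 to 70.3 and 62.6 to 73.9 FPKM. Spermatogonia markers (6 of 6) summed to 57.4 to 68.7 FPKM in DM and 53.4 to 57.3 FPKM in ND testes, without overlap, with Uchl1 higher and Kit lower at an unadjusted p-value below 0.05 (limma). Uchl1 carried that sum, at 43.5 to 53.0 against 35.6 to 40.9 FPKM, and the other 5 genes summed to 13.9 to 19.7 and 16.4 to 18.9 FPKM. Of the Leydig cell markers, 5 of 6 genes were present, without Hsd3b1. All 5 were lower in DM testes at an unadjusted p-value below 0.05 (limma), and their sum was 26.8 to 55.4 against 81.6 to 115 FPKM. Of 6 macrophage markers, 5 had a log2 fold change (DM against ND) below 0. At an unadjusted p-value below 0.05 (limma), 3 of the 6 were lower. The markers summed to 108 to 116 FPKM in DM and 83.0 to 124 FPKM in ND testes. These sums were carried by Aif1, the gene above 0, at 101 to 109 FPKM in DM and 73.9 to 114 FPKM in ND testes. Of the markers of epididymis and fat, Defb22 was listed at 0 in all samples, and the 5 genes present summed to 5.12 to 6.93 and 6.20 to 7.40 FPKM. In bulk tissue, fewer cells of a type and less RNA per cell cannot be told apart. The part of these markers in the differences below was not tested.

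Levels were compared first. The 44 genes spanned a wide range of levels, from Atg4a at a mean of 0.499 FPKM over the 6 testes to Gabarap at 446 FPKM, and none of them was listed at 0 in any rat. The median level of the 43 genes tested was 12.5 FPKM, against 4.60 FPKM over the 20338 genes tested in all. Gabarap, an ATG8 protein, stood higher than 99.5% of these genes. Next in level were the cargo receptor gene Nbr1 (158 FPKM), the initiation gene Rb1cc1 (151 FPKM), the cargo receptor gene Tax1bp1 (102 FPKM) and the lipid scramblase gene Atg9a (81.3 FPKM), each as the mean of 6 rats. At the low end were Atg10, Tfeb, Fundc1, Tfe3, Wipi1 and Ulk1, with means between 0.631 and 2.23 FPKM. Replicates of a group differed little. The coefficient of variation over 3 rats had a median of 7.50% in DM and 6.85% in ND testes, and the largest among the genes tested was 30.3%, for Wipi1 in ND testes.

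**Figure D1:**
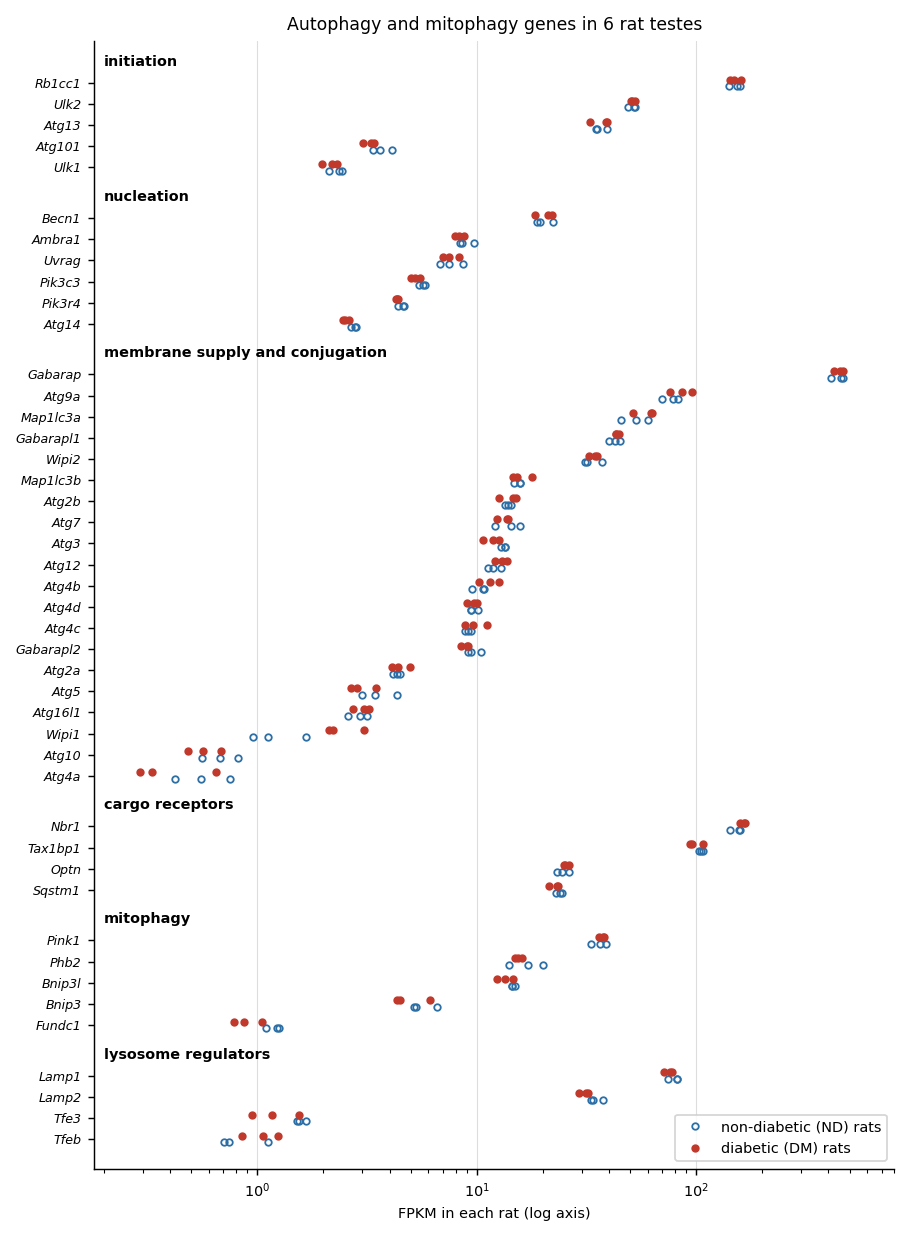
FPKM (log axis) of the 44 genes in each rat, filled points for the 3 DM rats and open points for the 3 ND rats, ordered by level within each step of the pathway. Levels run from 0.291 FPKM in the lowest rat for Atg4a to 469 FPKM in the highest for Gabarap, and the points of the groups overlap for most genes, with Wipi1 set apart.

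DM and ND testes were then compared gene by gene. The differences were small for most autophagy and mitophagy transcripts. The log2 fold change (DM against ND, on the scale of log2(FPKM + 0.1)) was above 0 for 20 and below 0 for 23 of the 43 genes tested. Over all genes tested, 11313 of 20338 were below 0. The median log2 fold change of the 43 genes was -0.0061, against -0.021 over all genes tested. In each rat, the median deviation of the members from their own mean, less the same over all genes, was 0.013, 0.017 and -0.050 log2 units in DM and 0.0016, 0.034 and -0.030 in ND testes, so the groups overlapped. At an unadjusted p-value below 0.05 from limma, 1 of the 43 genes was higher, Wipi1, and 0 were lower, where 2.47% of all genes tested were higher and 4.99% lower (7.46% in either direction). The same count was 1 to 4 genes under the alternatives described at the end, against 5.50% to 8.89% of all genes tested in each. A log2 fold change of 1 or more in either direction, together with such a p-value, was reached by 0 of 43 genes, against 1.24% of all genes. With p-values from limma adjusted by Benjamini-Hochberg across the whole table, 0 of 43 genes were below 0.05, against 0.0344% of all genes. DM and ND values were fully separate for 5 of 43 genes, 1 higher and 4 lower, which is 11.6% of them. Over all genes tested this share was 13.0%, with 4.56% higher and 8.42% lower. With all rats and the FPKM as deposited, these counts lay near or below the background. The count of separate genes moved with the setting. After rescaling to TPM it was 8 of 43 (18.6%, against 12.9% of all genes), and with a rat left out it was highest without DM replicate 3, at 14 (32.6% against 25.7%), and without ND replicate 3, at 13 (30.2% against 24.5%).

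The intervals show how large a difference in the total of whole testis could have gone unseen. Differences within a single cell type were not measured and could be larger. The 95% interval of the log2 fold change lay within 0.5 of 0 on both sides for 36 of the 43 genes (83.7%), and for 50.9% of all genes tested. For 42 of 43 genes it lay within 1 of 0, with Wipi1 as the exception. For those genes a difference of 1 on the scale of log2(FPKM + 0.1) lies outside the interval. At levels far above 0.1 FPKM this is close to a doubling or a halving of the gene total. For the lowest genes a halving is less than 1 on this scale. It can lie inside the interval, as for Atg10 (-0.89 to 0.46). The 7 genes with wider intervals than 0.5 were Wipi1, Atg5, Atg10, Bnip3, Fundc1, Tfeb and Tfe3, each with a mean below 6 FPKM. The median standard error was 0.093 for the members and 0.15 over all genes, and members also had higher levels. A log2 fold change nearer to 0 than 0.2 was found for 37 of the 43 genes (86.0%) and for 68.4% of all genes.

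**Figure D2:**
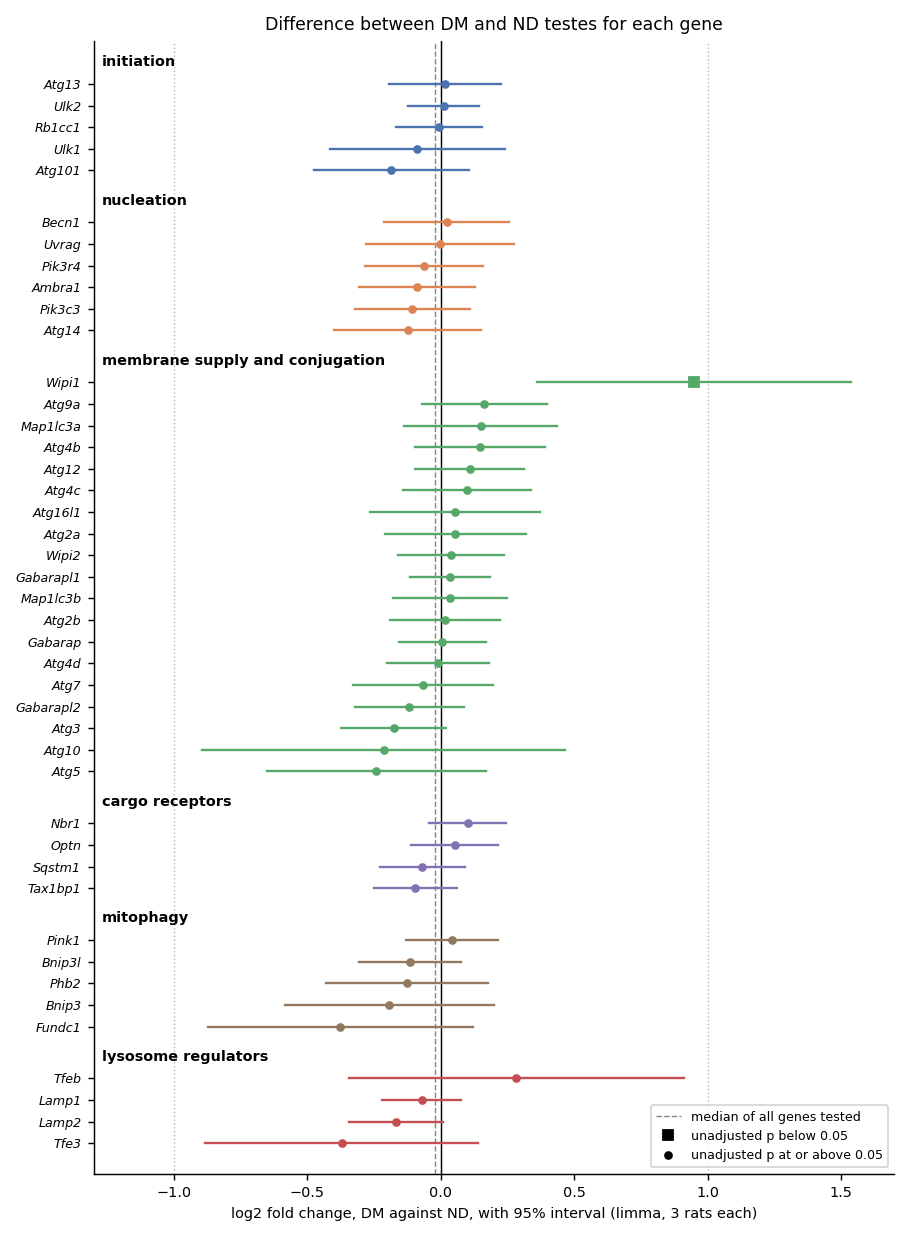
Log2 fold change (DM against ND) of the 43 genes tested with its 95% interval from limma, 3 rats in each group, ordered within each step of the pathway, with the square for the gene at an unadjusted p-value below 0.05. Of the 43 intervals, 42 lie between the dotted lines at -1 and 1, and that of Wipi1 runs from 0.36 to 1.54.

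Initiation came first in the pathway. Rb1cc1 encodes FIP200, the scaffold of the ULK complex. Its values were 143, 148 and 160.2 FPKM in DM and 154, 141 and 158 FPKM in ND rats, so the groups overlapped. The log2 fold change of Rb1cc1 was -0.0061, with a standard error of 0.069. Ulk1, a kinase of the complex, was at 2.18, 2.30 and 1.98 FPKM in DM and at 2.42, 2.35 and 2.12 FPKM in ND rats, a log2 fold change of -0.089 (SE 0.14). Its relative Ulk2 was much higher, with a mean of 51.2 FPKM and a log2 fold change of 0.010. Atg13, an adaptor of the complex, had a log2 fold change of 0.015. That of Atg101, which binds ATG13, was -0.19, with 3.23 ± 0.195 FPKM in DM and 3.695 ± 0.369 FPKM in ND testes (SD, n = 3 each). The groups overlapped for all 5 initiation genes.

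Nucleation genes encode the lipid kinase complex that marks the membrane with phosphatidylinositol 3-phosphate. Becn1, for Beclin-1, was at 18.4, 21.9 and 21.1 FPKM in DM and at 18.7, 19.4 and 22.3 FPKM in ND rats, a log2 fold change of 0.022 (SE 0.0995). The groups overlapped. The span of Becn1 overlaps that of Cntd1 in RefSeq (assembly GRCr8), and Cntd1 was at 38.2 FPKM in DM and 38.3 FPKM in ND testes, as means of 3 rats. Atg14, which directs the complex to autophagosomes, was the lowest of this step, at 2.46, 2.61 and 2.51 FPKM in DM and at 2.82, 2.79 and 2.68 FPKM in ND rats. Every DM rat was below every ND rat, by a small margin. For Atg14 the log2 fold change was -0.12 ± 0.12 (SE), with an adjusted limma p-value of 0.887 and an exact permutation p-value of 0.1, the lowest possible with 3 rats in each group. Pik3c3, the catalytic subunit VPS34, and Pik3r4, its regulatory subunit VPS15, had log2 fold changes of -0.11 and -0.064. Those of Ambra1, a regulator of Beclin-1, and Uvrag, the partner that replaces ATG14 in endosomal forms of the complex, were -0.089 and -0.0039. With these, 5 of the 6 nucleation genes were below 0, where 11313 of the 20338 genes tested in all were below 0. With an unadjusted p-value below 0.05 from limma, 0 of 6 passed, against 7.46% of all genes tested. Under median-ratio scaling of the libraries Uvrag was above 0, at 0.025.

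Membrane supply and conjugation was the largest step, with 20 genes, and the gene with the largest difference was among them. Wipi1 encodes a protein that binds phosphatidylinositol 3-phosphate on the growing membrane. It is listed as ENSRNOG00000003827. Its values were 3.05, 2.21 and 2.13 FPKM in DM rats and 1.67, 0.950 and 1.12 FPKM in ND rats. All DM rats were above all ND rats, and the highest rat of each group was its replicate 1. The means were 2.46 ± 0.5101 FPKM in DM and 1.25 ± 0.377 FPKM in ND testes (SD, n = 3 each), a ratio of 1.98. On the log2 scale the difference was 0.95 ± 0.25 (SE; limma, unadjusted p = 0.00642, adjusted p = 0.451; exact permutation p = 0.1). It was larger than the spread between rats by the unadjusted test and did not pass the adjusted one.

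The size of the Wipi1 difference depended on the scale, because its level is low. It was 0.63 with a pseudocount of 1 and 1.0004 with a pseudocount of 0.01. With a rat left out it was 0.79 without DM replicate 1 or without ND replicate 2, 0.89 without ND replicate 3, 1.01 without DM replicate 2, 1.04 without DM replicate 3 and 1.16 without ND replicate 1. It therefore reached the threshold of 1 with the smaller pseudocount and in 3 of the 6 fits with a rat left out. The unadjusted p-value from limma was between 0.00209 and 0.0266 under all 17 alternatives, and the adjusted p-value between 0.171 and 0.847. The span of Wipi1 overlaps that of Arsg in RefSeq. Arsg, a sulfatase gene, was at 0.831 ± 0.137 FPKM in DM and 0.819 ± 0.0739 FPKM in ND testes (SD, n = 3 each). The labels and methods do not say whether reads were counted by strand.

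Wipi2, the relative of Wipi1 that recruits ATG16L1, was at 35.4, 34.5 and 32.5 FPKM in DM and at 37.2, 31.1 and 31.7 FPKM in ND rats. The groups overlapped, and the log2 fold change of Wipi2 was 0.038 with an interval from -0.16 to 0.24. Wipi2 was thus far higher than Wipi1 in every rat. The lipid transfer genes Atg2a and Atg2b had log2 fold changes of 0.053 and 0.015. Atg9a, the scramblase of the vesicles that seed the membrane, was at 86.5, 95.3 and 75.9 FPKM in DM and at 78.0, 82.2 and 69.6 FPKM in ND rats. The groups of Atg9a overlapped, with a log2 fold change of 0.16 (SE 0.10, limma adjusted p = 0.801). With a rat left out it ran from 0.085 without DM replicate 2 (limma, unadjusted p = 0.422) to 0.25 without DM replicate 3 (unadjusted p = 0.0340), and it was 0.096 without ND replicate 3. With the replicate number as a block the p-value was 0.0191.

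The conjugation enzymes varied around 0. Atg3, the E2-like enzyme that attaches ATG8 proteins to lipid, was at 11.9, 10.7 and 12.6 FPKM in DM and at 13.5, 12.9 and 13.4 FPKM in ND rats. All DM rats were below all ND rats. Atg3 had a log2 fold change of -0.18 ± 0.083 (SE), with limma p-values of 0.0706 unadjusted and 0.712 adjusted and an exact permutation p-value of 0.1. With a rat left out it ran from -0.11 without DM replicate 2 (limma, unadjusted p = 0.218) to -0.23 without DM replicate 3 (unadjusted p = 0.0372). Atg7, the E1-like enzyme that acts before ATG3, had a log2 fold change of -0.067. Atg10, the E2-like enzyme for ATG12, was the lowest gene of the step that was tested. It was at 0.562, 0.684 and 0.481 FPKM in DM and at 0.818, 0.677 and 0.561 FPKM in ND rats, with overlapping groups and a log2 fold change of -0.21 (SE 0.29). The members of the ATG12-ATG5-ATG16L1 complex had log2 fold changes of 0.11 for Atg12, -0.24 for Atg5 and 0.054 for Atg16l1. The groups of these 3 genes overlapped. Of the ATG4 proteases, which trim ATG8 proteins, Atg4b, Atg4c and Atg4d were at means between 9.48 and 10.9 FPKM, with log2 fold changes of 0.15, 0.097 and -0.0098. Atg4a was at 0.331, 0.649 and 0.291 FPKM in DM and at 0.419, 0.553 and 0.748 FPKM in ND rats, just under the minimum mean of 0.5 FPKM, and was not tested.

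The ATG8 genes themselves followed. Gabarap was at 467, 450.4 and 424 FPKM in DM and at 457, 469 and 411 FPKM in ND rats. The values overlapped fully, and the log2 fold change was 0.0057 with an interval from -0.16 to 0.17. Gabarapl1 was at a mean of 43.1 FPKM over all rats with a log2 fold change of 0.035, and Gabarapl2 at 9.25 FPKM with -0.12. Of the LC3 genes, Map1lc3a was at 58.7 ± 6.34 FPKM in DM and 53.0 ± 7.39 FPKM in ND testes (SD, n = 3 each), which is 0.15 on the log2 scale. Map1lc3b was at 15.8 ± 1.68 and 15.4 ± 0.552 FPKM (SD, n = 3 each), with 0.035. None of the 5 ATG8 genes passed the test, and the groups overlapped for each. These are transcript levels, and the attachment of the proteins to membranes was not measured here. How the authors assigned reads that fit several related genes is not given in the sources used here, so values of close relatives are uncertain to that extent.

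**Figure D3:**
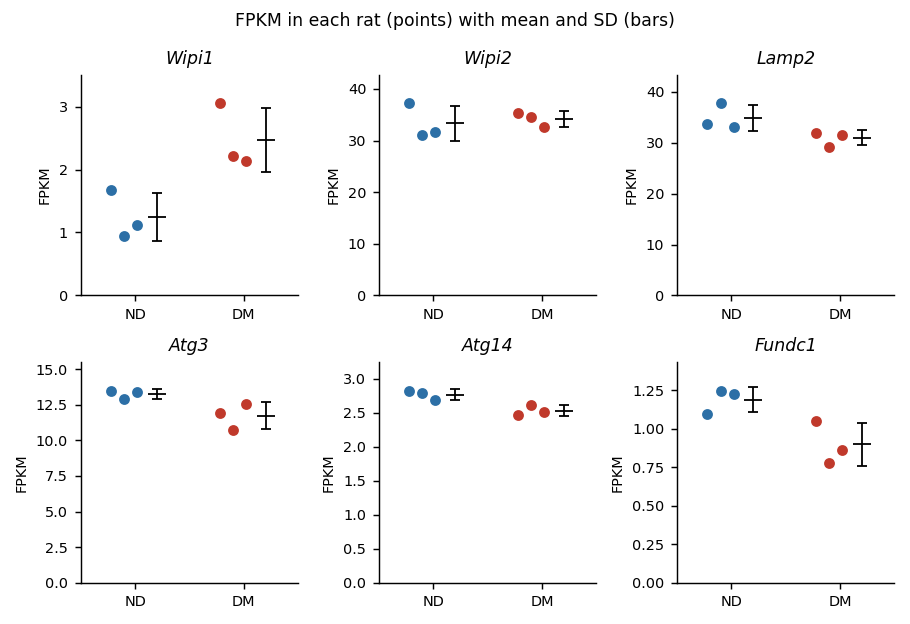
FPKM in each of the 3 ND and 3 DM rats (points) with the mean and SD (bars) for the 5 genes whose groups did not overlap and for Wipi2 beside Wipi1, each axis starting at 0. Wipi1 was at 2.46 FPKM in DM and 1.25 FPKM in ND testes on average, while Lamp2, Atg3, Atg14 and Fundc1 were lower in the DM rats by less than 0.4 on the log2 scale.

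Cargo receptors link ubiquitin or other tags on the cargo to ATG8 proteins. Nbr1 was the highest of them, at 167, 158 and 166 FPKM in DM and at 159, 157 and 142 FPKM in ND rats. The groups overlapped, and the log2 fold change of Nbr1 was 0.10 (SE 0.061). Sqstm1 encodes p62, a receptor that is itself broken down with its cargo. It was at 23.3, 23.3 and 21.3 FPKM in DM and at 23.9, 22.9 and 24.4 FPKM in ND rats. The groups of Sqstm1 overlapped, with a log2 fold change of -0.069 (SE 0.068). Optn, for optineurin, had a log2 fold change of 0.052, and Tax1bp1 one of -0.096 with 98.9 ± 7.42 FPKM in DM and 105 ± 2.10 FPKM in ND testes (SD, n = 3 each). With a rat left out, that of Tax1bp1 ran from -0.056 without DM replicate 2 (limma, unadjusted p = 0.468) to -0.16 without DM replicate 3 (unadjusted p = 0.0299). Of the 4 receptors measured, 2 were above 0, 2 below and 0 passed the test with all rats, against 7.46% of all genes tested.

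Of the 5 mitophagy genes measured, 4 had a log2 fold change below 0 (median -0.13), where 11313 of the 20338 genes tested in all were below 0. With an unadjusted p-value below 0.05 from limma, 0 of the 5 passed, against 7.46% of all genes tested. Pink1, the kinase that marks damaged mitochondria, was at 37.8, 37.5 and 36.2 FPKM in DM and at 38.9, 36.5 and 33.1 FPKM in ND rats. The DM values of Pink1 lay within the range of the ND values, and its log2 fold change was 0.041 (SE 0.073). Fundc1, a receptor of the outer mitochondrial membrane, was the lowest of this step, at 1.05, 0.779 and 0.866 FPKM in DM and at 1.10, 1.25 and 1.23 FPKM in ND rats. All DM rats were below all ND rats, with the nearest pair 1.05 and 1.10 FPKM. Its log2 fold change, the lowest among the members, was -0.38 ± 0.21 (SE), with limma p-values of 0.117 unadjusted and 0.779 adjusted and an exact permutation p-value of 0.1. The receptors Bnip3 and Bnip3l had log2 fold changes of -0.19 and -0.12, with overlapping groups. Phb2, for prohibitin 2 of the inner membrane, was at 16.1, 15.5 and 14.9 FPKM in DM and at 20.1, 17.1 and 14.0 FPKM in ND rats, so the spread lay mainly in the ND group. Its log2 fold change was -0.13. It was -0.0015 without ND replicate 1 (limma, unadjusted p = 0.990) and -0.26 without ND replicate 3 (unadjusted p = 0.0357).

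Among the lysosome regulators, Tfeb and Tfe3 encode related transcription factors that switch on autophagy and lysosome genes. Tfeb was at 0.852, 1.24 and 1.06 FPKM in DM and at 0.746, 0.701 and 1.12 FPKM in ND rats, a log2 fold change of 0.28 (SE 0.27). Tfe3 was at 1.55, 1.17 and 0.941 FPKM in DM and at 1.52, 1.55 and 1.67 FPKM in ND rats, a log2 fold change of -0.37 (SE 0.22). For both the groups overlapped, for Tfe3 through DM replicate 1. Without that rat the value for Tfe3 was -0.54 (limma, unadjusted p = 0.0427, adjusted p = 0.701), and without DM replicate 3 it was -0.21 (unadjusted p = 0.349). Lamp1 and Lamp2 encode the major glycoproteins of the lysosomal membrane. Lamp1 was at 76.3, 77.9 and 71.5 FPKM in DM and at 81.3, 81.5 and 74.5 FPKM in ND rats, with overlapping groups and a log2 fold change of -0.072 (SE 0.063). Lamp2 was at 31.9, 29.2 and 31.6 FPKM in DM and at 33.7, 37.7 and 33.0 FPKM in ND rats. All DM rats were below all ND rats. Lamp2 had a log2 fold change of -0.17 ± 0.075 (SE), with limma p-values of 0.0568 unadjusted and 0.682 adjusted and an exact permutation p-value of 0.1. With a rat left out it ran from -0.11 without ND replicate 2 (limma, unadjusted p = 0.181) to -0.21 without ND replicate 3 (unadjusted p = 0.0456), and after rescaling to TPM the p-value with all rats was 0.0375.

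TFEB and TFE3 bind the E-box CACGTG, the core of the element shared by many lysosome genes, so the promoters of the members were searched for these letters. CACGTG reads the same on both strands. Promoter sequences, from 250 bases before to 50 bases after the start of a RefSeq transcript (assembly GRCr8), were given for 39 of the 46 members. The 39 include Calcoco2 and Atg4a, whose expression was not tested. CACGTG was present in 6 of the 39 (15.4%), against 7.08% of 27457 genes with a promoter and 9.94% of the 10090 protein-coding genes tested here. It occurred at least 2 times in 3 of the 39 (7.69%), Lamp1, Atg3 and Pink1, against 1.08% of the protein-coding genes tested. With T before and A after the core it was present in 2 of the 39 (5.13%), against 1.64% of the protein-coding genes tested. The median GC content was 59.7% for the members and 60.3% for the protein-coding genes tested. Lamp1 held CACGTG 5 times and was the only one of the 27457 genes with 5. A match is a description of the sequence, and binding was not measured here.

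The promoters of Lamp1 and Atg3 are shown because they hold 5 and 2 copies, and that of Wipi1 because Wipi1 had the largest difference between the groups. Capitals mark CACGTG, and each sequence is read 5′ to 3′ on the strand of the gene. The Lamp1 promoter is at chr16:83075014-83075313, that of Atg3 at chr11:69159231-69159530 and that of Wipi1 at chr10:95079244-95079543, all on the minus strand of GRCr8.
Lamp1: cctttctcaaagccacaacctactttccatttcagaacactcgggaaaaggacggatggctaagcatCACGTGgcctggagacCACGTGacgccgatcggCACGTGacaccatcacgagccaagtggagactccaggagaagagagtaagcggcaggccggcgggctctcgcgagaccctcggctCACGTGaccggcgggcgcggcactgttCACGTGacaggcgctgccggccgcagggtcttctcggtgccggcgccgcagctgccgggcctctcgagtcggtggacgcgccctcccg
Atg3: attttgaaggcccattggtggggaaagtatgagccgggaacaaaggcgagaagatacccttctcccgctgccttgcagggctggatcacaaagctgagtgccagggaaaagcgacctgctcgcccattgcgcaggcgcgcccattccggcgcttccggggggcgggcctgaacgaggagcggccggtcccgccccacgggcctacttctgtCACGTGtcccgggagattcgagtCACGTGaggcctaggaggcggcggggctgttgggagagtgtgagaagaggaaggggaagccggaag
Wipi1: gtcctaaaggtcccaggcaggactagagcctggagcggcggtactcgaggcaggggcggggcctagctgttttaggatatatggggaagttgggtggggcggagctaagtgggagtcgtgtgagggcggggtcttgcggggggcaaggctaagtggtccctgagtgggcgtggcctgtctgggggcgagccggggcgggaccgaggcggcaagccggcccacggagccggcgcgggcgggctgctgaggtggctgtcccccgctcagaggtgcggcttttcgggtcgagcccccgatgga
Counted from the start base as 0, the copies began at -183, -167, -150, -65 and -38 in Lamp1 and at -39 and -16 in Atg3. The Wipi1 window holds no CACGTG. The other members with a copy were Pink1 with 2 and Atg14, Atg5 and Bnip3 with 1 each. The log2 fold changes of the 6 genes, from -0.24 for Atg5 to 0.041 for Pink1, were described above. At an unadjusted p-value below 0.05 from limma there were 0 of the 6, against 7.46% of all genes tested. With so few genes, this count does not tell them apart from all genes.

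Related genes were compared within each rat, where scaling between libraries has no influence. The ratio of Wipi2 to Wipi1 was 11.6, 15.6 and 15.3 in DM rats and 22.3, 32.7 and 28.4 in ND rats, with means of 14.2 ± 2.22 and 27.8 ± 5.26 (SD, n = 3 each). The groups did not overlap (exact permutation test, p = 0.1, the lowest possible with 3 rats in each group). With Wipi2 at a log2 fold change of 0.038, this ratio mostly restates the Wipi1 values given above. The other pairs overlapped between the groups. Over the 6 rats, the ratio of Ulk2 to Ulk1 was 20.8 to 25.4 and that of Gabarap to Gabarapl1 was 9.88 to 10.8. The ratio of Map1lc3a to Map1lc3b was 2.89 to 4.26 and that of Nbr1 to Sqstm1 was 5.84 to 7.80. The ratio of Lamp1 to Lamp2 was 2.16 to 2.67, and that of Bnip3l to Bnip3 was 2.27 to 3.03. Tfe3 to Tfeb varied most among the remaining pairs, at 1.81, 0.944 and 0.884 in DM rats and 2.03, 2.21 and 1.49 in ND rats (exact permutation test, p = 0.2). The order of the genes in each pair was therefore the same in every rat except for Tfe3 and Tfeb, which changed places in 2 DM rats.

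**Figure D4:**
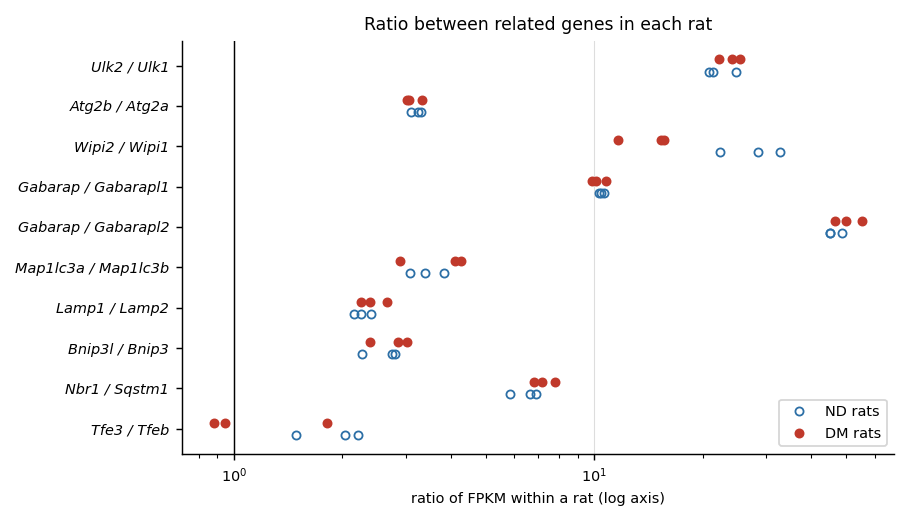
Ratio of FPKM between related genes within each rat (log axis), filled points for the 3 DM rats and open points for the 3 ND rats. The ratio of Wipi2 to Wipi1 is 11.6 to 15.6 in DM and 22.3 to 32.7 in ND rats without overlap, and the other 9 ratios overlap between the groups.

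The wider pathway was read from 5 further lists of 76 genes, of which 72 were tested. At an unadjusted p-value below 0.05 from limma, 2 of the 72 were higher and 6 lower (11.1%, against 7.46% of all genes tested). The lists were chosen with earlier results of these data known, so their shares beside those of all genes are a description only. Of 13 other genes of autophagosome formation and 11 other selective receptors, 0 passed in either direction. Retreg1, a receptor for endoplasmic reticulum, was listed at 0 in 3 rats of both groups and at 5.75 to 7.17 FPKM in the others, so its log2 fold change of -2.07 had a standard error of 2.11. Of 12 genes of fusion with the lysosome, Ykt6, a SNARE protein, was higher, at 0.16 on the log2 scale (limma, adjusted p = 0.651). Of 17 other mitophagy genes, Mfn2 was higher and Vdac1 and Nipsnap1 were lower. Mfn2 encodes the mitochondrial fusion protein mitofusin-2, a substrate of PINK1. With a log2 fold change of 1.99 it was the only gene of these lists with an adjusted p-value below 0.05 (0.00376 from limma), beside log2 fold changes of 0.041 for Pink1 and -0.13 for Phb2. Vdac1, a channel of the outer membrane, had a log2 fold change of -0.32, and Nipsnap1, a mitochondrial tag for autophagy, one of -0.70.

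The list of the lysosomal proton pump, which also holds the lysosomal channel and membrane genes Mcoln1, Scarb2 and Cd63, had 4 of the 6 lower genes. Of its 19 genes tested, 15 had a log2 fold change below 0, where 11313 of the 20338 genes tested in all were below 0. At an unadjusted p-value below 0.05 from limma, 4 of the 19 were lower (21.1%, against 4.99% of all genes tested). By p-value the first 3 were Cd63, a protein of late endosomes and lysosomes (-0.28, adjusted p = 0.436), Atp6v1h, a subunit of the proton pump (-0.16, adjusted p = 0.590), and Atp6ap2, an accessory protein of the pump (-0.50, adjusted p = 0.610). The fourth was Atp6ap1 with -0.33. Every DM rat was below every ND rat for 5 of the 19 genes (26.3%), against 8.42% of all genes tested. These 4 were among the 5, and they had been picked by p-value, so their separation is not separate evidence. Of the 16 genes of the pump and its accessory proteins alone, 13 were below 0 and 3 passed the same test (18.8%). Lamp1 and Lamp2, members of the same organelle, were at -0.072 and -0.17 in the same fit. All these genes stood in the same 6 testes in which Leydig cell markers were lower. In these testes, 5 of 6 macrophage markers were below 0, and 3 of the 6 had an unadjusted limma p-value below 0.05. The part of these cells in the values was not tested.

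**Figure D5:**
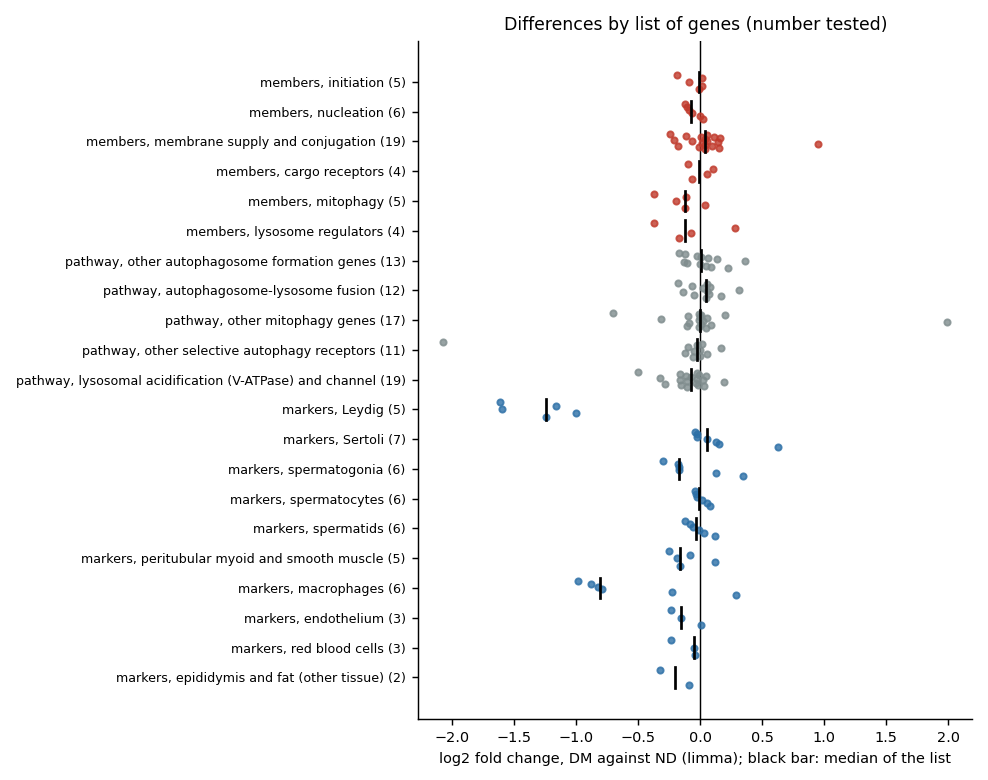
Log2 fold change (DM against ND, limma) of each tested gene as a point, by list, with a black bar at the median of the list and the number of genes in brackets. The 6 steps of the members have medians between -0.13 and 0.035, the lists of the wider pathway hold Mfn2 at 1.99 and Retreg1 at -2.07, and the 5 Leydig cell markers lie between -1.62 and -0.999.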

How the data were processed

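RNA-Seq values of testis from 3 DM and 3 ND rats were used, with groups and replicate numbers from the labels. The labels' protocol describes poly(A) selection but also names poly(A)- fractions and another tissue, and the titles list circRNA, lncRNA and mRNA, so the RNA fraction is uncertain. The authors checked reads with FastQC, screened rRNA with BWA, aligned with STAR, assembled with StringTie and deposited FPKM per gene. Versions and the genome build are not given in the sources used here. Values were transformed to log2(FPKM + 0.1), which understates differences of low genes. Genes averaging 0.5 FPKM or more (20338) entered a two-sided test in limma 3.58.1 (lmFit, eBayes with trend, R 4.3.3), and p-values were adjusted by Benjamini-Hochberg. Exact permutation tests used scipy 1.17.1 (Python 3.11.15). The steps were tested on simulated data. Alternatives were other pseudocounts (1, 0.01), another low-value filter (none, or a mean of 1 FPKM), TPM or median-ratio scaling, eBayes without trend or robust, a replicate block, protein-coding genes alone, rows of 1 symbol summed, and each rat left out. Members, lists and the naming rule were chosen with earlier results of these data known. By that rule, values in every rat are given for members at an unadjusted p-value below 0.05, with separate groups, with a log2 fold change of 0.5 or more in either direction, or highest or lowest in their step. Those of Wipi2, Atg9a, Phb2 and Tfe3 were added after their values were seen, as were Retreg1 and Atp6ap1 among the other lists, for which the rule takes at most 3 genes per direction. RefSeq (GRCr8) supplied 46 symbol matches, gene types and promoters. A planned comparison of ATG8 protein sequences was not run. Small RNA libraries were not analysed here.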

Additional observations from a re-analysis of the deposited data

How the results depend on the processing

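There were 17 alternatives, 11 in processing and 6 that each left out 1 rat. The adjusted count stayed at 0 under each of them. For the values that moved, the cause was not tested, beyond the fewer rats in the fits that left one out. The count past the criterion, 0 of 43, was 1 (Wipi1) with a pseudocount of 0.01 and 0 to 1 with a rat left out. The count at an unadjusted limma p-value below 0.05 was 1 of 43, against 7.46% of all genes. It was 2 after rescaling to TPM (Lamp2 added, 7.39% of all genes) and 2 with eBayes without trend (Fundc1 added, 7.91% of all genes). With a rat left out it was 1 to 4, against 5.50% to 7.73% of all genes. Without DM replicate 3 it was 4 (7.73% of all genes) and without ND replicate 3 it was 3 (7.395%). Without DM replicate 1 it was 2 (6.96%). The count of genes whose groups did not overlap, 5, was 8 after rescaling to TPM (18.6% of members, 12.9% of all genes) and 8 to 14 with a rat left out (18.6% to 32.6% of members, 20.8% to 25.7% of all genes). The median log2 fold change ranged from -0.049 (without ND replicate 3) to 0.0095 with a rat left out.

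With the replicate number as a block, the count at an unadjusted p-value below 0.05 was 2 (Wipi1 and Atg9a) and 8.12% of all genes. Deviations of same-numbered rats correlated at 0.11, 0.015 and 0.098, and those of rats with different numbers at -0.13 to 0.032. Not every sample correlated best with its own number. The labels give no more than the number, and whether same-numbered samples share a batch cannot be told from these values. The block changed no other call.

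The sign was kept under all 17 alternatives by 28 of the 43 members. It changed for 15, all with an absolute log2 fold change of at most 0.067 in the fit of all rats. Under median-ratio scaling, Rb1cc1 was at 0.023, Uvrag at 0.025 and Atg4d at 0.019. With a rat left out, the log2 fold changes ran from -0.021 to 0.031 for Ulk2, -0.029 to 0.096 for Atg13, -0.054 to 0.029 for Rb1cc1, -0.030 to 0.098 for Becn1, -0.080 to 0.089 for Uvrag, -0.022 to 0.12 for Atg2a, -0.035 to 0.093 for Atg2b, -0.044 to 0.032 for Atg4d, -0.17 to 0.018 for Atg7, -0.024 to 0.12 for Atg16l1, -0.0093 to 0.12 for Wipi2, -0.049 to 0.091 for Map1lc3b, -0.051 to 0.043 for Gabarap, -0.010 to 0.074 for Gabarapl1 and -0.020 to 0.095 for Pink1. Read depth is unknown, so precision rests on the spread between 3 rats, drawn by limma toward that of genes of like level. Precision was poorest for genes near 1 FPKM.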
